A study of Mus musculus with 6 samples.

Results

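Transfer RNAs are the most heavily modified RNAs of the cell, and the enzymes that make these modifications fall into a few chemical families. Methyltransferases add methyl groups to bases and riboses, Elongator and the thiolation pathway build the side chains of wobble uridines, deaminases turn adenosine into inosine, and other enzymes isomerise, reduce or extend single bases. Modifications in the anticodon loop bear on how codons are read, and those in the body of the molecule bear on its folding and stability. Queuosine is another such modification, placed at the wobble base of tRNAs that carry tyrosine, histidine, asparagine or aspartate, whose codons end in U or C (NAU and NAC). Mammalian cells make it from queuine, a base that they take up from diet and microbes.

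The genes described here encode 48 tRNA modification enzymes and their partner subunits that act on modifications other than queuosine. The rule names them by gene symbol and uses no measured value, and all 48 were found among the 57132 genes of the deposited table. Messenger RNA was sequenced from mouse bone marrow-derived dendritic cells, immune cells grown from marrow of female C57BL/6 mice aged 6 to 8 weeks in medium with dialyzed serum and the cytokine GM-CSF at 15 ng/mL. One group of 3 cultures received no queuine (0Q) and the other group of 3 received queuine at 100 nM (100Q), with fresh medium on days 2 and 4 and RNA extraction on day 5. The labels do not say whether the cultures came from separate animals, so the p-values measure the spread between these libraries, which may be partly technical. Only mRNA levels were measured, and neither the modifications themselves nor the enzymes' activities were.

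Total counts ranged from 3675918 to 6755367 among the 0Q libraries, and from 4484785 to 19386533 among those of 100Q, where replicate 3 was the deepest. Levels are given as CPM, counts scaled to a common library size with TMM factors, and a single count was worth from 0.0528 CPM there to 0.278 CPM in the shallowest library, 0Q replicate 3. All 10 dendritic cell markers examined were detected, with a summed level of 1082 to 1294 CPM in 0Q and 1126 to 1280 CPM in 100Q. The 8 macrophage markers summed to 1018 to 1293 CPM in 0Q and 928 to 1284 CPM in 100Q. These ranges overlapped those of the dendritic cell markers. Neutrophil and precursor markers summed to 16950.0 to 19869 CPM in 0Q and 14138 to 17219 CPM in 100Q, above the dendritic cell sum in every library. Mast cell and basophil markers summed to 456 to 511 CPM in 0Q and 344 to 444 CPM in 100Q, without overlap. The 4 B cell markers summed to 5.89 to 13.2 CPM and the 4 T cell markers to 1.14 to 7.18 CPM over the 6 libraries, with Cd3e at 0 counts in all of them. The part of these cell types in the values below was not tested, and in such bulk samples fewer cells of a type and less RNA per cell cannot be told apart.

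Because tRNAs that carry queuosine read NAU and NAC codons, the use of these codons by the modification genes themselves was counted in the canonical coding sequence of each (GENCODE, GRCm39). They are shown first because the codon content of each gene is fixed by its sequence and does not depend on the libraries. The NAU share of NAU plus NAC codons had a median of 43.9% over the 48 genes, with a lower quartile of 38.8% and an upper quartile of 53.0%. Over 8702 tested genes with at least 20 such codons the median was 44.0%, and over the 41 tested members with that many it was 45.0%. The share was highest, at 73.8%, in Trmt10c, a mitochondrial tRNA methyltransferase subunit (chromosome 16, 55852972 to 55869728, reverse strand), and lowest, at 9.62%, in Mocs3, which activates the sulfur carrier Urm1 (chromosome 2, 168072542 to 168074514, forward strand). The stretch of 30 codons richest in the preferred form is shown for each, with NAU and NAC codons in capitals (T stands for U).
Trmt10c, codons 228 to 257: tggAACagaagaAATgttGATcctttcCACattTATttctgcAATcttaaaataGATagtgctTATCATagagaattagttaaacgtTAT
Mocs3, codons 162 to 191: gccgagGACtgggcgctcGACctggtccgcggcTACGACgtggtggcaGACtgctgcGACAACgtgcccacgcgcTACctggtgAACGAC
The Trmt10c stretch held 8 NAU and 2 NAC codons, and the Mocs3 stretch held 0 NAU and 10 NAC codons. Nsun6 at 70.4%, Alkbh8 at 68.7% and Pus3 at 66.2% also had high NAU shares. The share followed base composition, with a Spearman rho of -0.85 against the GC content of the coding sequence across the 48 genes. It was also -0.85 across those 41 tested members, and -0.75 across the 8702 tested genes. The log2 fold change between media had a rho of -0.03 with the NAU share across the 41 tested members with at least 20 such codons, and -0.04 across the 8702 genes. Genes within a library are not independent replicates, so these rho values are descriptions.

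**Figure D1:**
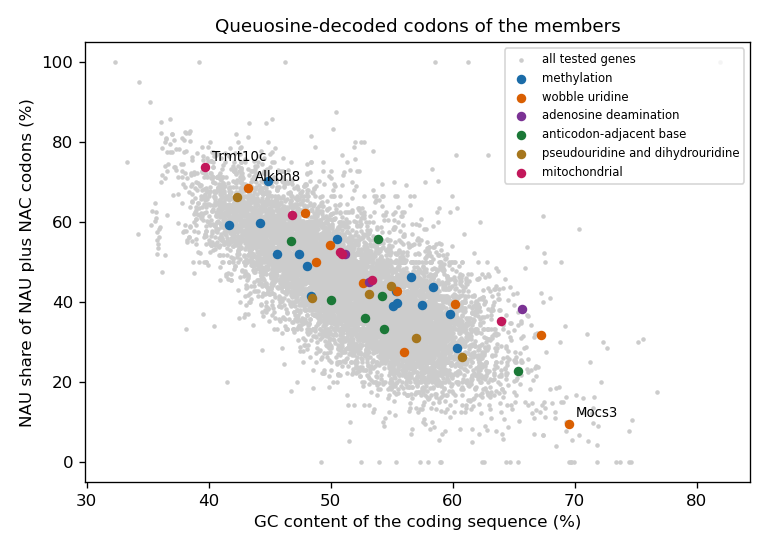
NAU share of NAU plus NAC codons (%) against GC content of the coding sequence (%), with grey points for all tested genes and coloured points for the 48 members by functional group. Members lie within the range of all tested genes, from Mocs3 at 9.62% to Trmt10c at 73.8%.

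Most of these genes were expressed at low levels. Of the 48, 42 had at least 1 count in every library and 43 passed the default filter on low counts and were tested. Among the tested members 28 lay below 10 CPM, or 65.1%, against 40.7% of all 10554 tested genes, 14 lay between 10 and 100 CPM and 1 lay above. The 5 untested members were Trmt61a, Elp4, Mocs3, Adat3 and Tyw3, and a filter of this kind removes genes that are low in many libraries. Together the 48 genes took 0.0644% to 0.0714% of the counts of a library. Trmt112, the activating subunit shared by several methyltransferases, took 34.1% of the 30649 counts assigned to them.

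**Figure D2:**
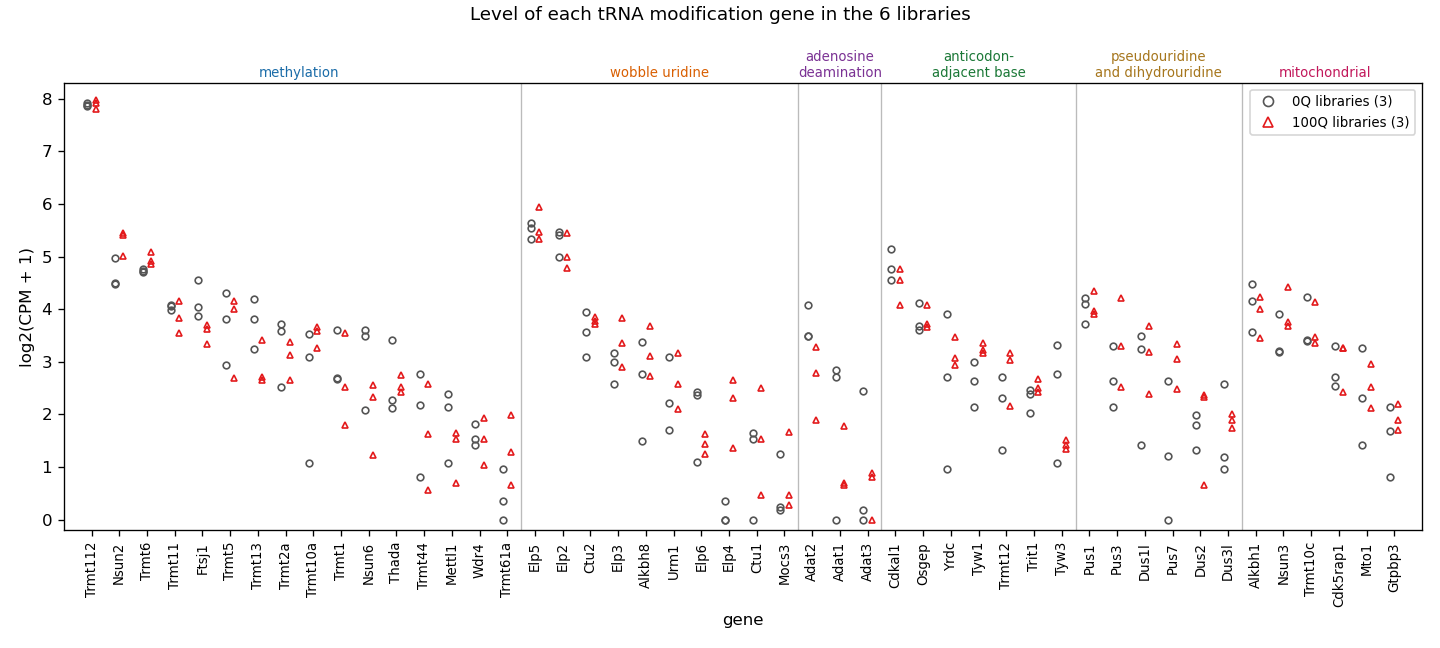
Level of each of the 48 genes as log2(CPM + 1), ordered by functional group and mean level, with circles for the 3 libraries of 0Q and triangles for the 3 of 100Q. Trmt112 stands far above the others in all 6 libraries, and Elp4 lies at or near 0 in the 0Q libraries only.

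Between cultures with and without queuine, 0 of the 43 tested members passed the test at an adjusted p under 0.05. Over all 10554 genes 0 passed as well (0% called), and the smallest adjusted p was 0.999 by edgeR's quasi-likelihood test with Benjamini-Hochberg adjustment. At an unadjusted p under 0.05 there were 2 members, Nsun2 with a higher estimate in 100Q and Adat2 with a lower one. That is 4.65% of the 43, where the share over all tested genes was 2.93%. There was no overlap between the media for 5 members, or 11.6%, where the share over all tested genes was 8.24%. The estimates of 25 members lay above 0 and those of 18 below, and the median log2 fold change was 0.07, against a median of 0.00 over all tested genes. DESeq2 and limma-voom also called 0 members, with 2 and 0 at an unadjusted p under 0.05, beside 356 and 310 of all 10554 genes. Over the 15 alternative settings the number at an unadjusted p under 0.05 ran from 0 to 6. It was 0 without 100Q replicate 1, without 100Q replicate 2 and by limma-voom. Over all genes, dropping these libraries gave 196 of 11162 and 193 of 11096. The number was 5 of 42 members without 0Q replicate 2, beside 662 of 10975 genes. Without 100Q replicate 3 it was 4 of 44, beside 404 of 11091. With a filter of at least 20 counts in 3 libraries it was 4 of 38, beside 277 of 9442. Without a filter it was 6 of 48, beside 839 of 21308, where Nsun6, Elp4, Tyw3 and Pus7 joined Nsun2 and Adat2. Without 0Q replicate 1 the number was 3 of 44, beside 405 of 11070 genes, and without 0Q replicate 3 it was 3 of 45, beside 333 of 11175. Elp4 was also among the members counted without 0Q replicate 1, 2 or 3, without 100Q replicate 3 and with the filter of at least 20 counts. In those settings it passed the filter only through its 100Q libraries.

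Precision was lower for genes at low levels. The half-width of the 95% interval of the log2 fold change had a median of 1.14 over the tested members and 0.81 over all tested genes. Intervals that stayed inside 2-fold, up or down, belonged to 11 members, or 25.6%, against 45.3% of all tested genes. Among genes between 10 and 100 CPM the share was 71.4% of the 14 members against 68.9% of all tested genes. Below 10 CPM it was 0% of 28 tested members against 1.44%. The interval stayed inside 1.5-fold for Trmt112 and Elp5, so that changes of that size in these 2 genes lay outside their intervals. It stayed inside 4-fold for 31 of the 43.

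**Figure D3:**
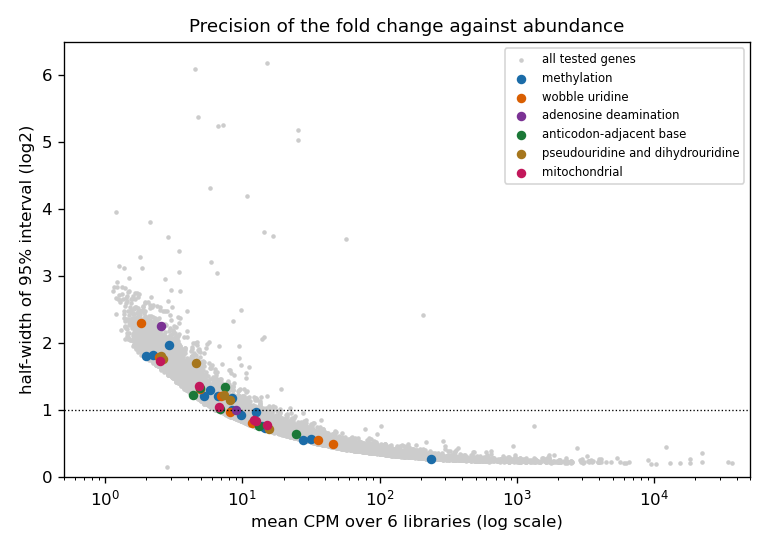
Half-width of the 95% interval of the log2 fold change against mean CPM on a log scale, with grey points for all tested genes and coloured points for the 43 tested members. The dotted line marks a half-width of 1 (2-fold), and most members below 10 CPM lie above it.

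The first group adds methyl groups to bases and riboses of cytosolic tRNAs and counts 16 genes. Of its 15 tested members 4 lay above 0 and 11 lay below by their estimates, at a median log2 fold change of -0.19, and 0 passed the test. With 1 library left out the median was lowest, at -0.37, when 0Q replicate 2 was dropped and highest, at -0.07, when 0Q replicate 3 was. Summed over the 16 genes the level was 389 ± 11.5 CPM without queuine against 389 ± 9.49 with it (SD, n = 3 each), of which Trmt112 made up the larger part. The sums of the groups overlapped.

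Trmt112 (ENSMUSG00000038812, chromosome 19, 6885799 to 6890848, forward strand, GRCm39) encodes a small zinc-binding protein that holds several methyltransferases in their active form, among them Trmt11 and Alkbh8. It had 242, 234 and 231 CPM in replicates 1, 2 and 3 of 0Q and 249, 239.9 and 223 CPM in those of 100Q. The groups overlapped, and the log2 fold change was 0.01 with an SE of 0.12 and a 95% interval from -0.25 to 0.27 (edgeR adjusted p = 0.999). Its level exceeded that of 94.1% of the tested genes. Trmt112 shares 38.5% of its annotated exon bases with Esrra and 19.1% with Prdx5 on the opposite strand, and its counts were not whole in any library. Esrra had a mean of 2.25 CPM, while Prdx5 had 622 CPM. The annotation also lists 2 processed pseudogenes of Trmt112, so its level is uncertain to the extent that reads were divided among these genes.

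Nsun2 (ENSMUSG00000021595, chromosome 13, 69681865 to 69784299, forward strand) encodes a methyltransferase that places methylcytosine in the variable loop of many tRNAs. It had 21.2, 30.5 and 21.7 CPM in replicates 1, 2 and 3 of 0Q and 41.4, 42.5 and 31.2 CPM in those of 100Q. Every 100Q value exceeded every 0Q value, and the nearest were 0Q replicate 2 and 100Q replicate 3. The log2 fold change was 0.64 with an SE of 0.27 and a 95% interval from 0.08 to 1.20 (unadjusted p = 0.0274, adjusted p = 0.999 by edgeR), the smallest unadjusted p among the tested members. With 1 library left out it ranged from 0.54 to 0.83. A relative, Nsun6, methylates a cytosine near the acceptor end. It had 11.1, 3.24 and 10.3 CPM in replicates 1, 2 and 3 of 0Q and 1.33, 4.00 and 4.86 CPM in those of 100Q. The groups overlapped, 0Q replicate 2 lay among the 100Q libraries, and the log2 fold change was -1.23 with an SE of 0.62 and a 95% interval from -2.52 to 0.07 (unadjusted p = 0.0619 by edgeR).

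Ftsj1 (ENSMUSG00000031171, chromosome X, 8100859 to 8122127, reverse strand) encodes a ribose methyltransferase of the anticodon loop. It had 22.5, 13.7 and 15.6 CPM in replicates 1, 2 and 3 of 0Q and 11.977, 9.06 and 11.3 CPM in those of 100Q. The 100Q libraries lay below those of 0Q, with 0Q replicate 1 the highest, and the log2 fold change was -0.67 with an SE of 0.36 and a 95% interval from -1.42 to 0.08 (unadjusted p = 0.0769 by edgeR). Trmt13, a ribose methyltransferase of the acceptor stem (ENSMUSG00000033439, chromosome 3, 116374411 to 116408236, reverse strand), had 8.50, 13.0 and 17.2 CPM in replicates 1, 2 and 3 of 0Q and 5.51, 5.27 and 9.62 CPM in those of 100Q. Of these, 0Q replicate 1 lay below 100Q replicate 3, so the groups overlapped, and the log2 fold change was -0.89 with an SE of 0.44 and a 95% interval from -1.81 to 0.03 (unadjusted p = 0.0573 by edgeR). Trmt13 shares 25.3% of its exon bases with Lrrc39 on the opposite strand, which had 6.84 ± 4.11 CPM without queuine against 4.27 ± 1.91 with it, and its counts were not whole in any library.

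The enzyme that methylates an adenosine of the T arm is built of Trmt61a, the catalytic subunit, and Trmt6, its partner. Trmt6 (ENSMUSG00000037376, chromosome 2, 132646121 to 132657975, reverse strand) had 25.5, 26.1 and 25.001 CPM in replicates 1, 2 and 3 of 0Q and 27.9, 29.1 and 32.8 CPM in those of 100Q. The 100Q libraries lay above those of 0Q, but the difference was smaller than its error, at an estimated log2 fold change of 0.23 with an SE of 0.26 and a 95% interval from -0.31 to 0.78 (unadjusted p = 0.380 by edgeR). Trmt61a, at 5, 2 and 0 counts in replicates 1, 2 and 3 of 0Q and 3, 14 and 27 in those of 100Q, did not pass the filter. Per kilobase of the canonical transcript Trmt6 had a median level of 9.54 CPM over the 6 libraries and Trmt61a 0.308 CPM, and Trmt6 was the higher in all 6.

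The other methylation genes gave these means. Trmt11, which methylates a guanosine of the D arm together with Trmt112, had 15.4 ± 0.588 CPM without queuine against 13.7 ± 3.10 with it (SD, n = 3 each). Per kilobase of transcript Trmt11 had a median of 6.44 CPM and Trmt112 67.9 CPM, and Trmt112 was the higher in all 6 libraries, also per kilobase of coding sequence. Trmt5, which methylates the guanosine beside the anticodon, had 12.8 ± 6.04 CPM without queuine against 12.5 ± 6.13 with it, and its libraries spread from 5.48 to 18.7 CPM. Trmt2a, which makes the methyluridine of the T loop, had 9.31 ± 4.02 CPM without queuine against 7.49 ± 2.03 with it, and Trmt10a, a guanosine methyltransferase, had 6.39 ± 4.83 CPM without queuine against 10.4 ± 1.63 with it, where 0Q replicate 3 lay at 1.11 CPM. Trmt1, which dimethylates a guanosine between the D and anticodon stems, had 7.32 ± 3.29 CPM without queuine against 5.97 ± 4.28 with it, and Thada, a partner of Ftsj1, had 5.59 ± 3.51 CPM without queuine against 4.94 ± 0.676 with it. Mettl1 and Wdr4, the catalytic and partner subunits of the enzyme that makes methylguanosine in the variable loop, had 2.91 ± 1.62 CPM without queuine against 1.55 ± 0.801 with it and 2.03 ± 0.453 CPM without queuine against 1.92 ± 0.874 with it. Trmt44, known in yeast as a uridine ribose methyltransferase of serine tRNA, had 3.37 ± 2.54 CPM without queuine against 2.51 ± 2.26 with it. For each of these the groups overlapped, and the unadjusted p by edgeR lay between 0.240 and 0.980. On the opposite strand Trmt2a shares 45.5% of its exon bases with Dgcr8, at 5.38 CPM, and 10.2% with Ranbp1, at 227 CPM. The counts of Trmt2a were not whole in 4 libraries. Trmt1 shares 21.7% of its exon bases with Nacc1, at 0.821 CPM, also on the opposite strand.

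The second group builds the side chains and the sulfur of wobble uridines and counts 10 genes. Of its 8 tested members 6 lay above 0 and 2 lay below by their estimates, at a median log2 fold change of 0.25, and 0 passed. With 1 library left out the median was lowest, at 0.07, when 100Q replicate 2 was dropped and highest, at 0.55, when 100Q replicate 3 was. Summed over the 10 genes the level was 116 ± 8.39 CPM without queuine against 126 ± 5.57 with it (SD, n = 3 each), and the sums overlapped.

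Elongator is a complex that starts the wobble uridine side chain. Its catalytic subunit is Elp3, Elp2 belongs to the same lobe of the complex, and Elp4, Elp5 and Elp6 form a ring that attaches to it. Elp5 (ENSMUSG00000018565, chromosome 11, 69858169 to 69873796, reverse strand) had 48.9, 45.6 and 39.4 CPM in replicates 1, 2 and 3 of 0Q and 42.965, 39.4 and 60.3 CPM in those of 100Q. The groups overlapped, 100Q replicate 3 was the highest, and the log2 fold change was 0.10 with an SE of 0.23 and a 95% interval from -0.38 to 0.58 (unadjusted p = 0.676 by edgeR). Per kilobase of transcript the subunits were far from equal, with medians over the 6 libraries of 24.3 CPM for Elp5, 7.97 CPM for Elp2 and 2.68 CPM for Elp3. The medians were 1.45 CPM for Elp6 and 0.138 CPM for Elp4. The ranges of Elp5, Elp2 and Elp3 did not overlap, while those of Elp3 and Elp6 did, and the range of Elp4 lay below that of Elp6. Annotated transcript length may differ from what these cells use, but per kilobase of coding sequence the order of the medians was the same.

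Elp4 (ENSMUSG00000027167, chromosome 2, 105521013 to 105734909, reverse strand) did not pass the filter, and its values in every library are given because they stood apart, a choice made after they were seen. It had 0, 2 and 0 counts in replicates 1, 2 and 3 of 0Q and 21, 25 and 30 in those of 100Q. Replicates 1 and 3 of 0Q held no count, and every library of 100Q held at least 21. After scaling, the deepest library, 100Q replicate 3, was the lowest of its group at 1.59 CPM. Replicate 1 of 100Q reached 3.99 CPM, replicate 2 reached 5.27 CPM, and 0Q replicate 2 stayed at 0.282 CPM. The ratio of the pooled CPM was 21.0, with a 95% counting interval of 5.62 to 177 that rests on 2 counts in 0Q and covers counting error only. Without a filter on low counts, edgeR gave a log2 fold change of 4.77 (SE 1.41) and an unadjusted p of 0.000747, with an adjusted p of 0.575 over 21308 genes. That fitted value depends on the prior count. In the 6 of 15 alternative settings that kept Elp4, its adjusted p by edgeR lay between 0.575 and 0.99957, but in 5 of these it passed a filter only through the 100Q libraries, where it was high, so those p-values are conditioned on the difference itself. Elp4 shares 25.5% of its exon bases with Pax6 on the opposite strand, and Pax6 was at 0 counts in all 6 libraries.

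Most other genes of this group were low. Elp2 had 38.4 ± 6.68 CPM without queuine against 33.3 ± 8.32 with it, Elp3 had 6.68 ± 1.54 CPM without queuine against 9.66 ± 3.42 with it and Elp6 had 3.21 ± 1.81 CPM without queuine against 1.73 ± 0.367 with it (SD, n = 3 each). Alkbh8, which completes the side chain by a methyl transfer, had 5.70 ± 3.81 CPM without queuine against 8.32 ± 3.16 with it, with 0Q replicate 2 at 1.83 CPM and 100Q replicate 1 at 11.8 CPM. The thiolase subunits Ctu1 and Ctu2 had 1.33 ± 1.16 CPM without queuine against 2.31 ± 2.16 with it, and 10.9 ± 3.42 CPM without queuine against 12.8 ± 0.577 with it. Per kilobase of transcript Ctu2 was higher than Ctu1 in all 6 libraries, with medians of 4.07 and 0.761 CPM. Ctu2 shares 50.6% of its exon bases with Piezo1 on the opposite strand, which had a mean of 1.21 CPM. Urm1, the ubiquitin-like sulfur carrier of the pathway, had 4.48 ± 2.71 CPM without queuine against 5.41 ± 2.40 with it. Mocs3 had 1, 1 and 5 counts in replicates 1, 2 and 3 of 0Q and 2, 1 and 41 in those of 100Q, and it shares 38.98% of its exon bases with Dpm1, a gene of 462 CPM on the opposite strand. For all of these the groups overlapped.

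The third group deaminates adenosine to inosine and counts 3 genes. Both of its 2 tested members had estimates below 0, and 0 passed. Their median log2 fold change was -1.30, but -2.07 without 100Q replicate 3 and -0.38 by limma-voom, where the estimate of Adat1 turned to 0.11. Adat2 (ENSMUSG00000019808, chromosome 10, 13428638 to 13439261, forward strand), the catalytic subunit of the enzyme that makes wobble inosine, had 15.9, 10.3 and 10.3 CPM in replicates 1, 2 and 3 of 0Q and 5.89, 2.74 and 8.67 CPM in those of 100Q. All libraries of 100Q lay below those of 0Q, and the nearest were 0Q replicate 3 and 100Q replicate 3. The log2 fold change was -1.04 with an SE of 0.47 and a 95% interval from -2.03 to -0.05 (unadjusted p = 0.0413, adjusted p = 0.999 by edgeR). With 1 library left out it was lowest, at -1.48, when 100Q replicate 3 was dropped and highest, at -0.73, when 100Q replicate 2 was. Adat2 shares 10.0% of its exon bases with Pex3 on the opposite strand, which had 12.8 ± 5.63 CPM without queuine against 9.98 ± 3.80 with it.

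Adat1, which deaminates an adenosine of alanine tRNA beside the anticodon, had 0, 6.21 and 5.56 CPM in replicates 1, 2 and 3 of 0Q and 0.570, 0.632 and 2.43 CPM in those of 100Q. The library without a count was in 0Q, the group with the higher mean, so the groups overlapped, and the log2 fold change was -1.57 with an SE of 1.07 and a 95% interval from -3.82 to 0.68 (unadjusted p = 0.159 by edgeR). Adat3, the partner of Adat2, had 0, 1 and 16 counts in replicates 1, 2 and 3 of 0Q and 4, 0 and 16 in those of 100Q and was not tested. All of its annotated exon bases lie within exons of Scamp4 on the same strand, so its value depends on how reads were divided. Per kilobase of transcript Adat2 was higher than Adat3 in all 6 libraries. The 3 genes summed to 15.9, 16.6 and 20.3 CPM in the 0Q libraries, in rising order, and to 3.37, 7.22 and 11.9 CPM in the 100Q libraries. These sums did not overlap, and Adat2 accounted for the larger part of them.

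**Figure D4:**
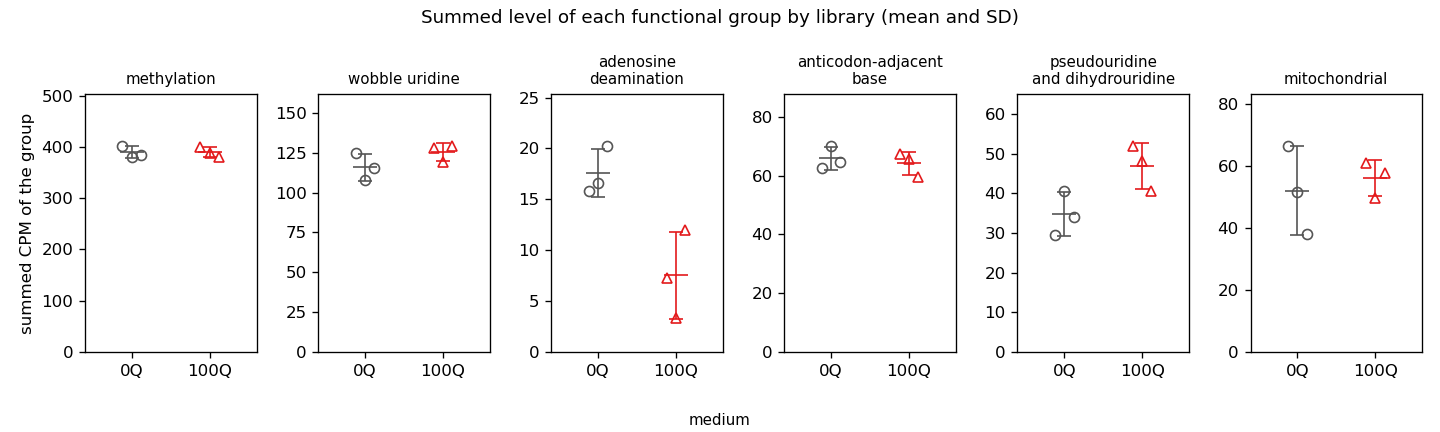
Summed CPM of each functional group by library, from 0, with circles for 0Q, triangles for 100Q and bars for the mean and SD of 3 libraries. Sums of the deaminases, mostly Adat2, lie lower in 100Q and those of the pseudouridine and dihydrouridine synthases higher, without overlap. The nearest synthase sums were 40.6 CPM in 0Q and 40.7 CPM in 100Q. Those of the other 4 groups overlap. Among single genes, 8.24% of all tested genes did not overlap.

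The fourth group modifies the purine on the downstream side of the anticodon and counts 7 genes. Of its 6 tested members 5 lay above 0 and 1 lay below by their estimates, at a median log2 fold change of 0.24, and 0 passed. The median was lowest, at 0.01, when 100Q replicate 2 was dropped and highest, at 0.53, when 0Q replicate 2 was. Cdkal1 (ENSMUSG00000006191, chromosome 13, 29375729 to 30039659, reverse strand), which adds a methylthio group in lysine tRNA, was the most abundant. It had 34.6, 22.6 and 26.1 CPM in replicates 1, 2 and 3 of 0Q and 26.2, 15.8 and 22.6 CPM in those of 100Q. The groups overlapped, at an estimated log2 fold change of -0.36 with an SE of 0.30 and a 95% interval from -0.99 to 0.27 (unadjusted p = 0.247 by edgeR).

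Wybutosine is a base with a tricyclic core that is found in phenylalanine tRNA, and Tyw1, Trmt12 and Tyw3 act on it in that order. Tyw1 (ENSMUSG00000056310, chromosome 5, 130284460 to 130371961, forward strand), whose enzyme forms the ring, had 3.40, 5.22 and 6.94 CPM in replicates 1, 2 and 3 of 0Q and 8.36, 9.27 and 7.98 CPM in those of 100Q. The 100Q libraries lay above those of 0Q, with 0Q replicate 3 the nearest, and the log2 fold change was 0.73 with an SE of 0.48 and a 95% interval from -0.29 to 1.74 (unadjusted p = 0.149 by edgeR). Trmt12 had 3.67 ± 2.04 CPM without queuine against 6.24 ± 2.41 with it (SD, n = 3 each) and its groups overlapped. Tyw3, which was not tested, had 31, 64 and 4 counts in replicates 1, 2 and 3 of 0Q and 8, 8 and 35 in those of 100Q. Its 100Q libraries lay between 1.52 and 1.85 CPM, and those of 0Q spread from 1.11 to 9.03 CPM.

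Osgep and Yrdc act together in making threonylcarbamoyladenosine, Yrdc by preparing the activated precursor and Osgep by its transfer. Osgep had 13.1 ± 2.84 CPM without queuine against 13.3 ± 2.39 with it and Yrdc had 6.87 ± 6.68 CPM without queuine against 8.08 ± 1.79 with it (SD, n = 3 each). Yrdc had the widest spread of the tested members in 0Q relative to counting error, with 0.944 CPM in replicate 1 and 14.1 CPM in replicate 2. On the opposite strand it shares 44.9% of its exon bases with 1110065P20Rik, at a mean of 3.26 CPM, and 33.3% with Maneal, at 0 CPM. Trit1, which adds the isopentenyl group to adenosine, had 3.94 ± 0.780 CPM without queuine against 4.78 ± 0.499 with it, and its groups overlapped.

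The fifth group holds 3 pseudouridine synthases, which rearrange uridine, and 3 dihydrouridine synthases, which reduce it. All 6 were tested and had estimates above 0, and the median log2 fold change was 0.28. The sign was not stable for 4 of them when single libraries were dropped, with lowest values of -0.09 for Pus1, -0.21 for Dus1l, -0.03 for Dus2 and -0.18 for Dus3l. None of the 6 passed the test, and 0 of them had an unadjusted p under 0.05. With 1 library left out the median was lowest, at 0.16, when 100Q replicate 1 was dropped and highest, at 0.73, when 0Q replicate 3 was. Summed over the 6 genes the level was 29.5, 34.2 and 40.6 CPM in the 0Q libraries, in rising order, and 40.7, 48.2 and 52.1 CPM in the 100Q libraries. The sums did not overlap, but the nearest differed by less than the worth of 1 count in the shallowest library.

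Pus7 (ENSMUSG00000057541, chromosome 5, 23945150 to 23993255, reverse strand), a pseudouridine synthase of tRNAs and other RNAs, had 1.32, 5.22 and 0 CPM in replicates 1, 2 and 3 of 0Q and 4.56, 9.06 and 7.29 CPM in those of 100Q. The 0Q libraries spread from 0 to 5.22 CPM and reached into the range of 100Q, and the log2 fold change was 1.58 with an SE of 0.80 and a 95% interval from -0.11 to 3.28 (unadjusted p = 0.0653 by edgeR). It was 3.22 without 0Q replicate 2 and 1.06 without 0Q replicate 3. Pus3 (ENSMUSG00000032103, chromosome 9, 35469891 to 35480308, forward strand), which modifies the anticodon stem-loop, had 3.40, 5.22 and 8.89 CPM in replicates 1, 2 and 3 of 0Q and 17.5, 8.85 and 4.70 CPM in those of 100Q. The groups overlapped, the log2 fold change was 0.83 with an SE of 0.54 and a 95% interval from -0.32 to 1.97 (unadjusted p = 0.146 by edgeR), and without 100Q replicate 1 it was 0.20. Pus3 shares 90.9% of its exon bases with Hyls1 on the opposite strand, which had 3.26 ± 2.94 CPM without queuine against 4.97 ± 4.26 with it.

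Pus1 (ENSMUSG00000029507, chromosome 5, 110919464 to 110928602, reverse strand), a synthase of both cytosolic and mitochondrial tRNAs, was the most abundant of the group. It had 12.1, 17.5 and 16.1 CPM in replicates 1, 2 and 3 of 0Q and 14.6, 19.4 and 14.1 CPM in those of 100Q. The groups overlapped, at an estimated log2 fold change of 0.07 with an SE of 0.34 and a 95% interval from -0.64 to 0.78 (unadjusted p = 0.842 by edgeR). Among the dihydrouridine synthases, Dus1l had 6.78 ± 4.51 CPM without queuine against 8.03 ± 3.79 with it, Dus2 had 2.32 ± 0.741 CPM without queuine against 2.92 ± 2.03 with it and Dus3l had 2.40 ± 2.25 CPM without queuine against 2.70 ± 0.360 with it (SD, n = 3 each). Dus1l shares 31.5% of its exon bases with Gps1 on the opposite strand, a gene of 40.0 CPM.

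The promoters of the 3 pseudouridine synthases are shown because they have 1 of the searched motifs in common. Promoter sequences run from 250 bases before to 50 after the gene start and come from RefSeq (GRCm38.p6), where 42 of the 48 members matched by symbol. The letters CACGTG, the palindromic E-box bound by basic helix-loop-helix factors, occur in a promoter of all 3 synthases and are in capitals. The other 4 members with that match were Mettl1, Osgep, Trmt10a and Trmt61a, which gives 7 of 42, or 16.7%. The same letters occur in 7.15% of all 32851 promoters and in 10.4% of the 9995 promoters of tested genes. Where a gene has several listed starts the first is printed. The window of the other listed start of Pus7 has no such match. The match begins at base 273 of the printed window in Pus1 and 279 in Pus7, after the gene start. In Pus3 it begins at base 119, before the gene start.
Pus1, chr5:110780566-110780865, reverse strand: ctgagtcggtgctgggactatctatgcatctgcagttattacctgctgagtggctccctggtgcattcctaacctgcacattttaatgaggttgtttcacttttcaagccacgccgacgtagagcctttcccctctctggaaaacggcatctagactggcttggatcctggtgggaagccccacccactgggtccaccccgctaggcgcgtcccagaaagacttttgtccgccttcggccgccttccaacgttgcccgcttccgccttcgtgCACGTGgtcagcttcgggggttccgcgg
Pus3, chr9:35558310-35558609, forward strand: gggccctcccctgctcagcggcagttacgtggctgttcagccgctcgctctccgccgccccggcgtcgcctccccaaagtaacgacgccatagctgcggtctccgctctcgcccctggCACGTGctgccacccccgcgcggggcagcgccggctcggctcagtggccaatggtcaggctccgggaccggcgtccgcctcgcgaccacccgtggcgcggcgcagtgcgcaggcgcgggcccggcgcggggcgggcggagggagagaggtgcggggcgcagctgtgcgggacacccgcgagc
Pus7, chr5:23783662-23783961, reverse strand: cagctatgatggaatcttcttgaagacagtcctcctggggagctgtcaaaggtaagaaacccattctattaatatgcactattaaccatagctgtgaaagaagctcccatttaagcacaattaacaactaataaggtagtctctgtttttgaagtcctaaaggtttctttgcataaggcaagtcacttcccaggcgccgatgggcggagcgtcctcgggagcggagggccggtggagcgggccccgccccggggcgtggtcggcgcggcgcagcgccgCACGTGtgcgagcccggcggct
Other short motifs were counted over the same windows on both strands. The letters CCGGAAG, the core bound by ETS factors, occur in promoters of 15 members, or 35.7%, against 8.86% of all promoters and 19.6% of those of tested genes. The GC box letters GGGCGG occur in 16 members, or 38.1%, against 35.7% of all promoters and 61.8% of those of tested genes. The letters TATAAA occur in promoters of 2 members, Adat2 and Dus3l, or 4.76%, against 13.6% and 7.35%. The motifs were chosen with the expression values known, a match is not a bound site, none of the motifs contains another, and the members are counted by gene but the other shares by promoter.

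The sixth group acts on mitochondrial tRNAs and counts 6 genes, all tested. Estimates of 4 lay above 0 and those of 2 below, and 0 passed. The median log2 fold change was 0.09. This median was lowest, at -0.04, when 0Q replicate 3 was dropped and highest, at 0.20, when 0Q replicate 2 was. The 6 genes summed to 52.0 ± 14.2 CPM without queuine against 56.2 ± 5.82 with it (SD, n = 3 each), and the sums overlapped.

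Nsun3 and Alkbh1 act in turn on the wobble cytosine of mitochondrial methionine tRNA, Nsun3 by methylating it and Alkbh1 by oxidising the methyl group. Alkbh1 (ENSMUSG00000079036, chromosome 12, 87470130 to 87490787, reverse strand) had 21.2, 16.9 and 10.8 CPM in replicates 1, 2 and 3 of 0Q and 17.7, 9.90 and 15.0 CPM in those of 100Q. The groups overlapped, at an estimated log2 fold change of -0.20 with an SE of 0.37 and a 95% interval from -0.98 to 0.57 (unadjusted p = 0.587 by edgeR), and its counts were not whole in any library. Nsun3 had 10.1 ± 3.38 CPM without queuine against 14.9 ± 4.86 with it, its log2 fold change was 0.56 with an SE of 0.39, and its groups also overlapped. Mto1 and Gtpbp3 together build the taurine side chain of mitochondrial wobble uridines, and they had 4.75 ± 3.53 CPM without queuine against 4.94 ± 1.71 with it and 2.12 ± 1.32 CPM without queuine against 2.87 ± 0.680 with it (SD, n = 3 each). Per kilobase of transcript Mto1 was the higher in 4 of the 6 libraries, so their order differed between libraries. Trmt10c, which is also part of mitochondrial RNase P, had 12.4 ± 4.67 CPM without queuine against 12.014 ± 4.08 with it, and Cdk5rap1, a methylthiotransferase, had 6.41 ± 2.17 CPM without queuine against 7.21 ± 2.46 with it.

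**Figure D5:**
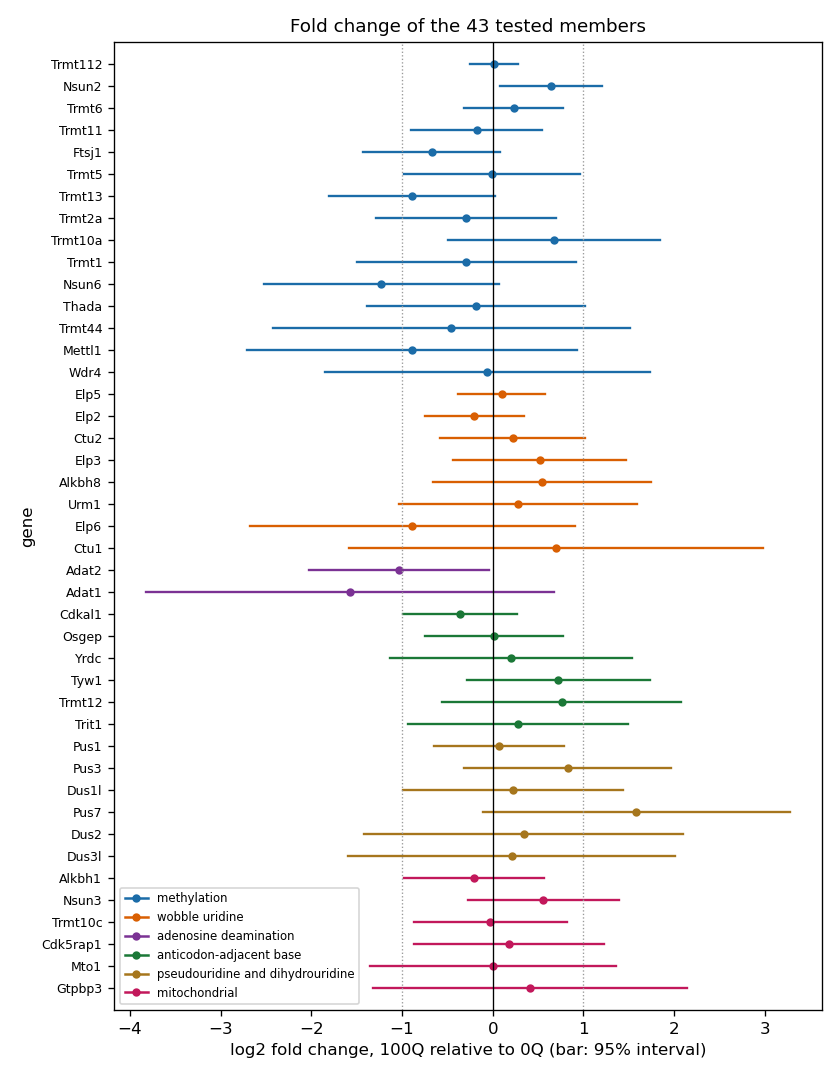
Log2 fold change of 100Q relative to 0Q for the 43 tested members by functional group, with points for the estimate and bars for the 95% interval; dotted lines mark 2-fold. The bars of Nsun2 and Adat2 leave out 0, on opposite sides, and those of the other 41 include it.

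Among other genes of tRNA modification 0 passed the test. Of 40 such genes listed, 39 were found and 33 were tested, with 16 estimates above 0 and 17 below and a median log2 fold change of -0.04. By edgeR 0 had an adjusted and 0 had an unadjusted p under 0.05, and the groups did not overlap for 4 of the 33, or 12.1%, beside 8.24% of all tested genes. The 2 with the smallest p were Tyw5, a later enzyme of wybutosine synthesis, and Mettl8, a methyltransferase of mitochondrial tRNAs. Tyw5 had 29.7, 23.6 and 21.9 CPM in replicates 1, 2 and 3 of 0Q and 4.94, 19.4 and 18.4 CPM in those of 100Q. Its log2 fold change was -0.80 with an SE of 0.40 (unadjusted p = 0.0627 by edgeR). The 100Q libraries lay below those of 0Q, and 100Q replicate 1 was far below the rest. Mettl8 had 4.91, 3.38 and 1.67 CPM in replicates 1, 2 and 3 of 0Q and 9.13, 7.58 and 4.39 CPM in those of 100Q. These overlapped, and its log2 fold change was 1.04 with an SE of 0.59 (unadjusted p = 0.0923 by edgeR).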

How the data were processed

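The authors deposited expected counts per gene, 1 column for each of 6 libraries, unpooled and not normalized. FastQC, STAR and RSEM were used with mm39 (GRCm39), per the submitters' processing notes. Their versions, the annotation release and the strandedness are not stated in these sources. RSEM divides ambiguous reads, so overlapping genes and near-identical copies may share counts. Of the 48 members 35 share exon bases with another annotated gene, 11 of them more than 20% with a single gene. Symbols and positions came from GENCODE mouse release M39, in which 502 of 57132 identifiers had no match. The values were rounded to whole numbers and tested with edgeR 4.0.16 in R 4.3.3 (filterByExpr, TMM, robust glmQLFit, glmQLFTest). Fold changes are 100Q over 0Q, and p-values were adjusted by Benjamini-Hochberg over 10554 genes at a threshold of 0.05. The SE is the absolute log2 fold change over the root of F, and the 95% intervals use the fit's total degrees of freedom. The code was tested on simulated data. Alternatives were DESeq2 1.42.0, limma 3.58.1 voom, other scalings and filters, thinning of 100Q replicate 3, a replicate block and each library left out.

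Members were named by symbol, with no measured value in the rule, but members and lists were chosen with earlier results of these data known. Values in every library are given for the 8 tested members with the smallest p, those whose groups do not overlap, and the most abundant of each functional group. Outside this rule they are also given for Adat1, for the 5 untested members and for the non-members Tyw5 and Mettl8. Intervals on counts cover counting error only, as no molecular identifiers are mentioned. Lengths are those of canonical transcripts.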

Additional observations from a re-analysis of the deposited data

How the results depend on the processing

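By edgeR, DESeq2 or limma-voom 0 tested members passed the threshold in any of the 15 alternatives. Over all genes the count stayed at 0 except that it ranged from 0 to 2 when single libraries were dropped. Dropping 0Q replicate 1 gave 2 calls, Gvin2 and Gm46542, and dropping 0Q replicate 2 gave 1 call, Gm2446, none of them a member. The median log2 fold change of the tested members, 0.07, was 0.099 with library totals alone, 0.097 without a filter on low counts, 0.046 with at least 20 counts in 3 libraries and 0.17 by limma-voom. Over all genes the median in these settings was 0.035, 0.065, 0.0018 and 0.017. The members' median fell to 0.0054 if 100Q replicate 2 was dropped and reached 0.096 if 100Q replicate 3 was. Over all genes it was -0.011 and 0.0012 there. The cause was not tested. A replicate block left 0 genes and 0 members called, with a median of 0.07 over the members and 0.017 over all genes. Same-numbered libraries had correlated deviations of 0.05, 0.18 and -0.05, and other pairs of -0.21 to 0.21, so the numbers were not taken to pair the samples. Members, none of them called, had an estimate of the other sign in 36 of 255 fits of a gene with 1 library dropped, in 16 of 335 under other settings and in 0 of 43 under the block. Below 10 CPM the interval lay within 2-fold for 0 of 28 tested members, beside 62 of all 4298 tested genes at that level, or 1.44%. Counting error was not the larger part of the spread. The variance between libraries was, at the median tested member, 6.69 times that of counting in 0Q and 6.11 times in 100Q. At the median of all tested genes these values were 6.76 and 6.41, so the spread was not particular to the members.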
